A study of Arabidopsis thaliana with 8 samples.

Results

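The Casparian strip is a ring of lignified cell wall around each endodermal cell of the root, and the genes described here are 10 known for building it, among them CASP1, CASP2, CASP4, CASP5, MYB36, SGN3, ESB1, PER64 and RBOHF. They were taken by locus identifier from the authors' deposited gene table, where they are 10 of 33201 rows and all 10 had been tested. RNA was sequenced from Arabidopsis thaliana root cells sorted for WOX5::GFP, a reporter of the quiescent center (QC), which holds the slowly dividing cells around which root stem cells lie. The wild type and the pan mutant each gave 4 libraries, all in the Col-0 accession and all carrying the reporter, from seedlings grown for 5 days and protoplasted. PAN (PERIANTHIA) is a bZIP transcription factor of the TGA class; the labels do not give the allele of the mutant. The table holds 1 pooled value per gene and genotype, so the values carry no standard deviation and only the authors' q-value, a p-value adjusted over all tested genes, speaks to the spread between libraries.

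As background, the strip seals the space between endodermal cells so that water and ions must cross a membrane to reach the vessels. CASP proteins form a fixed domain in the endodermal plasma membrane, and that domain gathers the peroxidases, NADPH oxidases and dirigent proteins that polymerise lignin beside it. MYB36 is the transcription factor that switches on much of this machinery downstream of SHR and SCR, and the receptor kinase SGN3 senses whether the ring is closed. The strip forms where the endodermis differentiates, above the meristem, and not in the QC.

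Coding sequences of CASP genes were compared to show how alike they are, and how well reads can be assigned between them was not tested. In the RefSeq annotation of TAIR10.1 CASP1, CASP2, CASP4 and CASP5 each have 3 exons, and their coding sequences are 564 to 621 bases long. Over the 6 pairs of these 4 genes, 64.6% to 80.6% of aligned coding bases were identical, and the longest run shared by a pair was 10 to 20 bases. CASP2 and CASP4 were the closest pair by both measures. The stretch around their shared run is printed because it holds the longest identical coding run of these pairs; it lies at chr3:3638389-3638448 in CASP2 and at chr5:1877454-1877513 in CASP4, both on the plus strand of TAIR10.1, and the capitals mark the shared 20 bases.
CASP2: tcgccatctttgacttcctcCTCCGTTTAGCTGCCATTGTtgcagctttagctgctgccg
CASP4: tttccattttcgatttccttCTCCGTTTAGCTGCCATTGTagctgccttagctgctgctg
Differences stand on both sides within a few bases of the run. The read length is not given in the sources used here, and CASP2 and CASP4 values are given as deposited.

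The 2 members that passed the authors' test were RBOHF and CASP1, and both were higher in pan. The 300 bases before the annotated start of each are printed as the promoter windows of the genes that changed. The CASP1 window is chr2:15160800-15161099 on the minus strand and the RBOHF window is chr1:23769474-23769773 on the plus strand, both read from TAIR10.1.
CASP1: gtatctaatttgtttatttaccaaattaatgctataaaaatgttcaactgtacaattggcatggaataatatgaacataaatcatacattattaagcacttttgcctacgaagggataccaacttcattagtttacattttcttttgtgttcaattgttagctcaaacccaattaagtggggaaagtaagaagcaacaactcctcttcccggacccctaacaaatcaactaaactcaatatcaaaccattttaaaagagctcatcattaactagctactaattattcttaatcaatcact
RBOHF: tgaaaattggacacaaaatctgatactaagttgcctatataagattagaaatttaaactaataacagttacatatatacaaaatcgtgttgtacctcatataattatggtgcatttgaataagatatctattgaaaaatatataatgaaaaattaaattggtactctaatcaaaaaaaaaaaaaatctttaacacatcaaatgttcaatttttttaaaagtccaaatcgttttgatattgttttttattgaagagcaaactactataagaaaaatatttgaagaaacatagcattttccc
The letters TGACG, the core that TGA-class bZIP factors are known to bind, were searched on both strands of these windows. They occurred in 0 of the 10 members' windows and in 21.3% of 27438 windows of the same length before protein-coding genes. The letters ACCNACC, an element bound by R2R3 MYB factors, occurred in 0 of the 10 and in 7.09% of all. These counts say only that the letters are not in these windows.

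RBOHF, the NADPH oxidase that supplies superoxide at the strip, had the largest change of the 10. The authors' deposited table put RBOHF (AT1G64060, chromosome 1, 23769774 to 23776931, TAIR10) at 13.4 FPKM for wild type against 64.3 FPKM for pan, a 4.78-fold rise (log2 change 2.26, q = 0.00116). FPKM is the number of sequenced fragments scaled to transcript length and library size, so levels can be compared between genes. CASP1 (AT2G36100), the most abundant of the strip membrane proteins' transcripts here, rose 2.99-fold from 48.4 to 145 FPKM (log2 change 1.58, q = 0.0435) in the authors' deposited table. The span deposited for CASP1, chromosome 2, 15158561 to 15160750 (TAIR10), is also the span deposited for its neighbour AT2G36090. RefSeq places CASP1 itself at 15159591 to 15160799. SGN3, ESB1 and PER64 likewise share their deposited span with an overlapping neighbour. Of all 19789 tested genes, 17.8% were called in either direction and 8.01% were called higher, so 2 of 10 is near the background for calls in either direction and above it for calls higher, on 2 genes only and with no test. In these sorted bulk samples, a change in the share of cells of a type and a change in RNA per cell cannot be told apart, for rises as for falls.

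**Figure D1:**
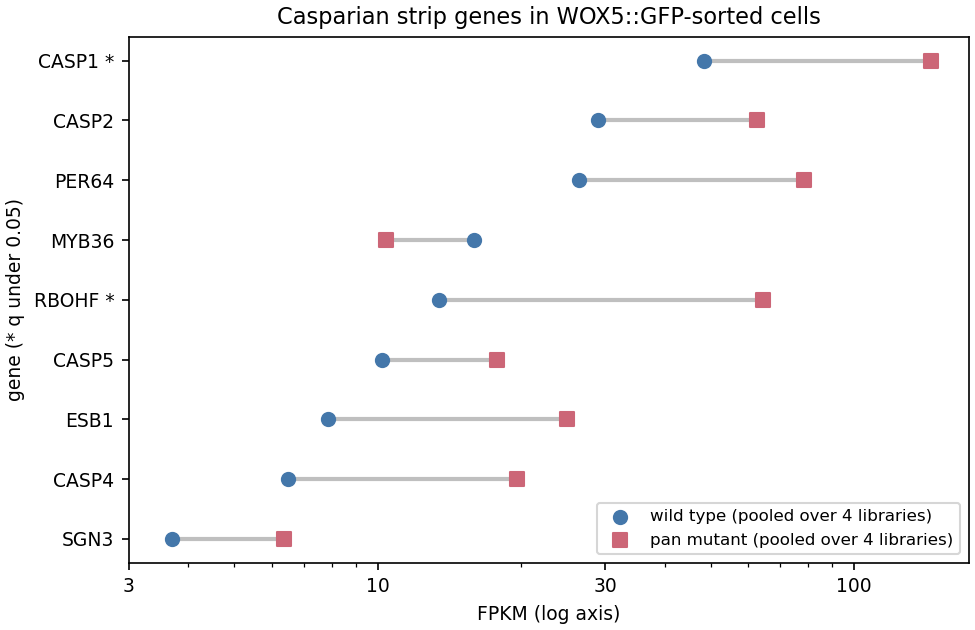
FPKM of 9 Casparian strip genes on a log axis, 1 pooled value per genotype (circles, wild type; squares, pan mutant), with genes ordered by wild type level and an asterisk where q was under 0.05. MYB36 is the 1 gene whose pan value lies to the left of its wild type value, and the line is longest for RBOHF, from 13.4 to 64.3 FPKM.

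CASP2, CASP4 and CASP5, which encode further proteins of the membrane domain, did not pass the test, and each had a higher value in pan. The authors' deposited table put CASP2 (AT3G11550) at 29.0 FPKM for wild type against 62.4 FPKM for pan (2.16-fold, q = 0.171). CASP4 (AT5G06200), at 6.49 and 19.6 FPKM, had a ratio of 3.02, close to that of CASP1, with q = 0.256 in the authors' deposited table. CASP5 (AT5G15290) had the smallest ratio of these, 1.74, at 10.2 and 17.8 FPKM (q = 0.437) in the authors' deposited table.

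Summed over CASP1, CASP2, CASP4 and CASP5, transcripts came to 94.1 FPKM for wild type against 245 FPKM for pan, a ratio of 2.601. CASP1 made up 51.5% of that sum in wild type and 59.2% in pan, and CASP2 30.8% and 25.5%. CASP5 made up 10.8% and 7.26%, and CASP4 6.89% and 7.998%. The order of levels was CASP1, CASP2, CASP5, CASP4 in wild type, and CASP4 and CASP5 changed places in pan, where they stood at 19.6 and 17.8 FPKM. Without values per library, no neighbouring pair in this order can be said to differ beyond its spread.

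**Figure D2:**
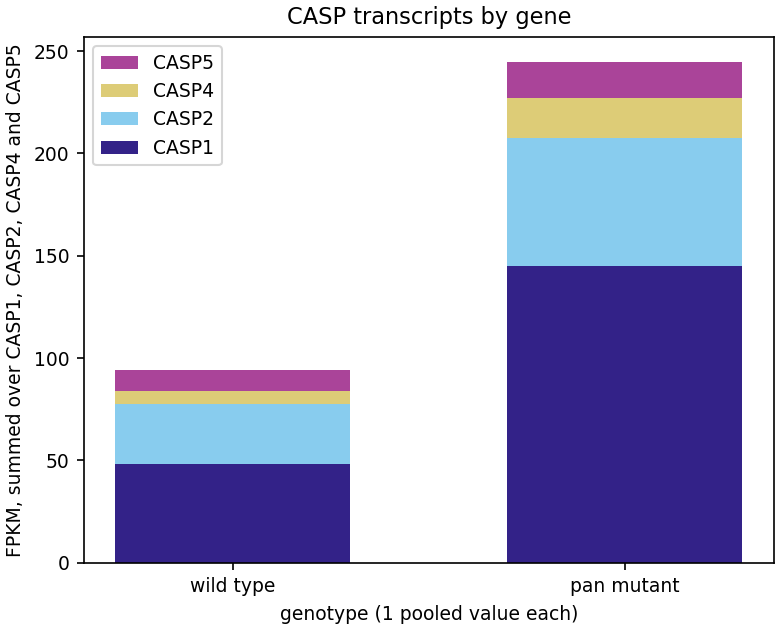
FPKM of CASP1, CASP2, CASP4 and CASP5 stacked for wild type and the pan mutant, 1 pooled value per gene and genotype, so no error bars are drawn. The sum is 94.1 in wild type and 245 in pan, and CASP1 forms the largest block in both.

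The peroxidase and the dirigent protein of the wall had ratios close to that of CASP1, and neither passed. ESB1 (AT2G28670), a dirigent-domain protein needed to place lignin at the strip, stood at 7.87 FPKM for wild type against 25.01 FPKM for pan (3.18-fold, q = 0.0641) in the authors' deposited table. PER64 (AT5G42180), a class III peroxidase of strip lignification, stood at 26.4 and 78.7 FPKM (2.98-fold, q = 0.305) in the authors' deposited table. The ratios of CASP1 and PER64 were thus nearly equal, and their q-values were 0.0435 and 0.305. ESB1 overlaps the opposite-strand gene AT2G28671 over 1772 bases, and that gene was listed at 0.236 and 0.376 FPKM, far below ESB1. No source says whether counting used strand, so the listed values do not settle which of these overlapping genes the fragments came from.

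The regulator and the receptor had the smallest changes. MYB36 (AT5G57620) was the only member of the 10 with a lower value in pan, at 15.9 FPKM for wild type against 10.4 FPKM for pan (log2 change -0.61, q = 0.517) in the authors' deposited table. Set beside it, CASP1 stood at 3.04 times the MYB36 level in wild type and 13.9 times in pan; for PER64 these ratios were 1.66 and 7.55, and for ESB1 0.493 and 2.40. These ratios of pooled values have no test. SGN3 (AT4G20140), named GSO1 in RefSeq, was the least abundant member in both genotypes, at 3.70 and 6.37 FPKM (1.72-fold, q = 0.766) in the authors' deposited table. SGN3 overlaps the opposite-strand gene AT4G20150 over 337 bases. In the authors' deposited table AT4G20150 rose from 346 to 806 FPKM (q = 0.00574), and as no source says whether counting used strand, the SGN3 values are uncertain. CASP1 overlaps AT2G36090 over 49 bases and PER64 overlaps AT5G42190 over 34; those genes stood at 0.419 and 2.98 FPKM and at 44.04 and 54.3 FPKM, and neither was called in the authors' deposited table.

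Taken as a list, 9 of the 10 members had a log2 change above 0, against 44.8% of the 19590 tested genes above 0 FPKM in both genotypes. For the 10, the median log2 change was 1.34, and that of all tested genes was -0.17. The members averaged 5.03 to 96.7 FPKM over both genotypes, and 11472 tested genes within that range had a median log2 change of -0.11, with 46.04% above 0; of all 11488 tested genes within it, 21.6% were called and 8.02% were called higher. Among about 980 genes of the most similar level, the RBOHF change exceeded 95.8%, that of ESB1 93.3%, that of CASP4 92.0%, that of CASP1 91.8% and that of PER64 91.4%. CASP2, SGN3 and CASP5 exceeded 83.7%, 81.0% and 79.4% of theirs, and MYB36 37.2%. In level, CASP1 exceeded 83.2% of tested genes in wild type and 93.4% in pan, RBOHF 53.9% and 85.6%, and MYB36 58.2% and 52.1%. Since the members were chosen with results of these data known, these are descriptions with no test.

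**Figure D3:**
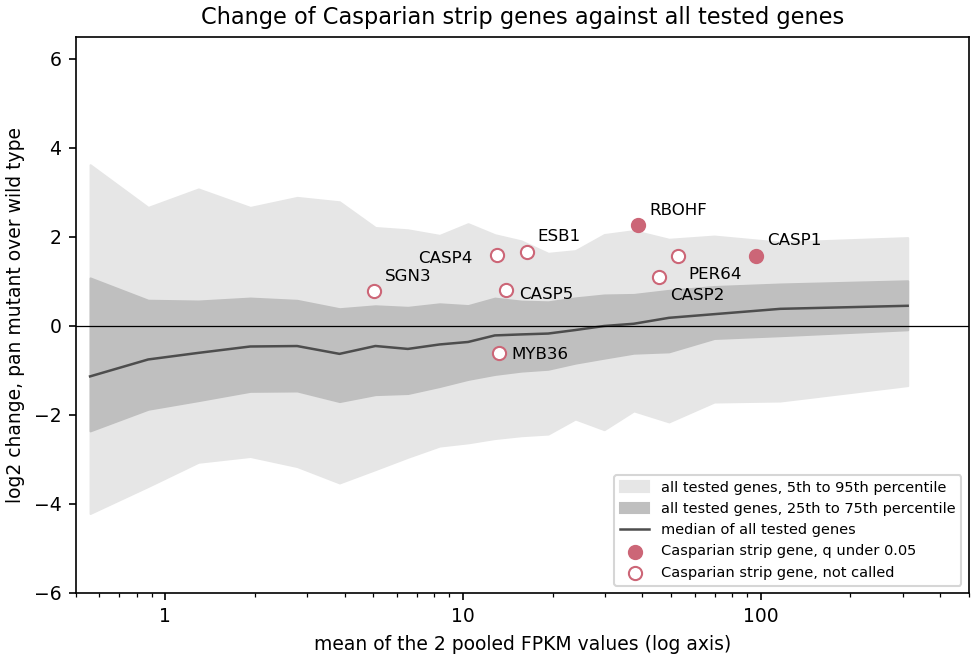
Log2 change (pan mutant over wild type) against the mean of both pooled FPKM values on a log axis; bands and line give percentiles of all tested genes in 20 bins of level, and points are 9 Casparian strip genes, filled where q was under 0.05. RBOHF, at 2.26, lies just above the 95th percentile of its bin, and MYB36, at -0.61, lies below the median line.

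Genes upstream of MYB36 went the other way from CASP1 and RBOHF. Of SHR, SCR, MGP and JKD, transcription factors that specify the ground tissue from which the endodermis arises, 3 of 4 fell and none rose, with a median log2 change of -2.25; 9.83% of all tested genes were called lower. SCR fell from 29.9 to 6.08 FPKM (q = 0.00116) in the authors' deposited table. MGP fell from 11.1 to 2.41 FPKM (q = 0.0320) and SHR from 2.33 to 0.252 FPKM (q = 0.0489) in the authors' deposited table, while JKD stood at 19.8 and 8.04 FPKM (q = 0.0544). CASP1 stood at 1.62 times the level of SCR in wild type and at 23.8 times in pan, a ratio of pooled values with no test. The QC markers WOX5 and AGL42, given below, also fell, and whether these falls are linked was not tested.

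Other genes of the strip pathway were read from a list of 19, of which 18 had a row of their own and 16 were tested; 3 rose and 2 fell, against 8.01% and 9.83% of all tested genes. The median log2 change was 0.96. The tyrosylprotein sulfotransferase TPST, which activates sulfated peptides including the ligands of SGN3, fell from 34.5 to 13.2 FPKM (q = 0.0192) in the authors' deposited table. The peroxidase RCI3 (PER3) fell from 98.6 to 41.2 FPKM (q = 0.0283), and the peroxidase PRX72 rose from 32.1 to 102 FPKM (q = 0.0310) in the authors' deposited table. Peroxidases of the list thus changed in both directions.

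The dirigent gene AT3G55230, of the same protein family as ESB1, rose from 20.2 to 81.3 FPKM (q = 0.0213) in the authors' deposited table. UCC2, a small blue copper protein, rose from 164 to 452 FPKM (q = 0.00116), and its relative UCC1 stood at 49.6 and 77.0 FPKM (q = 0.331) in the authors' deposited table. EXO70A1, the exocyst subunit that directs CASP proteins to the strip domain, stood at 37.9 and 72.2 FPKM (q = 0.0575) in the authors' deposited table. The laccase LAC3 stood at 4.75 and 10.1 FPKM (q = 0.299) in the authors' deposited table. Dirigent genes AT2G39430 (23.7 and 47.4 FPKM), AT3G24020 (26.5 and 52.5 FPKM) and AT4G13580 (7.76 and 34.7 FPKM) had no call in the authors' deposited table; the fifth dirigent gene of the list, AT1G07730, shares its row with another gene and was not used. The protein kinase gene AT1G61590 stood at 6.62 and 15.6 FPKM (q = 0.231) and the peroxidase genes AT1G44970 and AT4G11290 at 2.67 and 4.34 FPKM and at 51.9 and 34.7 FPKM, with no call in the authors' deposited table. AT4G34600 (3.44 and 1.36 FPKM) and AT5G50150 (6.49 and 2.996 FPKM) were lower in pan, also with no call in the authors' deposited table.

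RBOHF was not alone among the NADPH oxidases. Of 9 other genes listed for that family, 7 were tested, 4 rose and none fell, against 8.01% of all tested genes called higher and 9.83% called lower. RBOHC (RHD2), the oxidase of root hair growth, rose from 24.4 to 90.6 FPKM (q = 0.00116) in the authors' deposited table. AT4G25090 rose from 4.54 to 38.2 FPKM (q = 0.00202), AT1G19230 from 4.06 to 21.7 FPKM (q = 0.0186) and AT4G11230 from 0.168 to 4.34 FPKM (q = 0.0283) in the authors' deposited table. RBOHD, the oxidase of immune responses, stood at 0.905 and 1.996 FPKM (q = 0.426) in the authors' deposited table. Whether the RBOHF change differs from those of its relatives was not tested.

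Of the relatives of MYB36, none of 4 tested genes was called in the authors' deposited table, against 17.8% of all tested genes. RAX2 (MYB38) stood at 4.58 and 27.1 FPKM (q = 0.0651), while MYB37, MYB68, MYB84 and the untested MYB87 lay below 2 FPKM in both genotypes. Monolignol synthesis genes, which make the building blocks of lignin, had 1 call among 15 tested: OMT1 (COMT1) rose from 72.2 to 166 FPKM (q = 0.0121) in the authors' deposited table. Among all tested genes 8.01% were called higher, so 1 of 15 is near that background. The median log2 change of those 15 was 0.48. PAL1, the entry enzyme of the phenylpropanoid pathway, stood at 86.7 and 121 FPKM (q = 0.379) in the authors' deposited table.

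**Figure D4:**
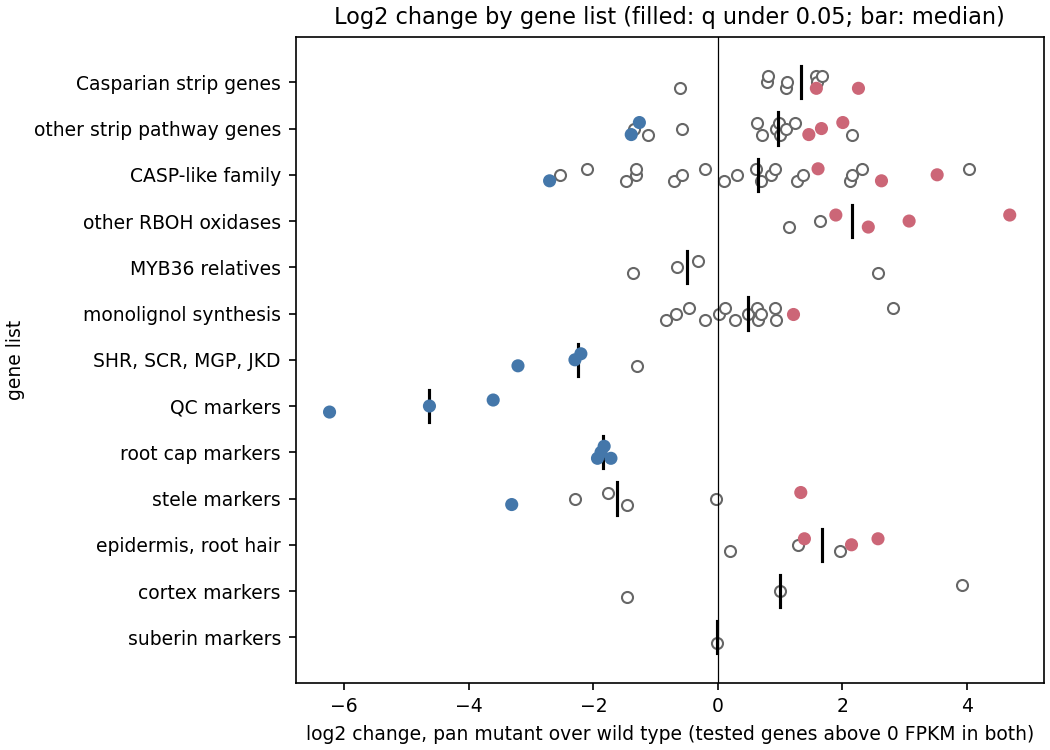
Log2 change (pan mutant over wild type) of every tested gene above 0 FPKM in both genotypes, by gene list; filled points had q under 0.05 and black bars are list medians. The Casparian strip genes have a median of 1.34, and SHR, SCR, MGP and JKD one of -2.25.

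Markers of other cells moved in the same samples, in which 8.01% of all tested genes were called higher and 9.83% lower. All 3 QC markers fell: WOX5, the gene of the sort marker, from 205 to 8.27 FPKM (q = 0.00116), PAN from 19.996 to 0.265 FPKM (q = 0.0386) and AGL42 from 20.8 to 1.70 FPKM (q = 0.005235) in the authors' deposited table. PAN is the mutated gene itself, so its fall says nothing further about QC cells. Summed over each list, 6 epidermis and root hair markers came to 406 FPKM for wild type against 1181 FPKM for pan (3 rose, none fell), 4 root cap markers to 340 and 96.6 FPKM (4 fell) and 6 stele markers to 63.8 and 76.4 FPKM (1 rose, 1 fell). Of the stele markers, WOL (28.1 and 70.8 FPKM) alone was higher in pan and carried the sum; the other 5 had lower values in pan, and the list's median log2 change was -1.62. The 3 cortex markers came to 4.82 and 36.9 FPKM, none called, and most of the pan sum was C/VIF2 (2.24 and 33.9 FPKM, q = 0.0721) in the authors' deposited table. Of the epidermis and root hair markers, EXPA18 had the highest values (204 and 535 FPKM, q = 0.0473) in the authors' deposited table. WER had the smallest change of them (36.7 and 42.2 FPKM, q = 0.802), so the summed rise does not hold alike for each marker. No marker of these lists was at 0 in either genotype. The part of these cell types in the changes of CASP1 and RBOHF was not tested.

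Of 5 suberin synthesis genes, which mark the endodermis after the strip has formed, 3 were listed at 0 in wild type and 4 were not tested. GPAT5, CYP86A1, CYP86B1 and FAR4 all lay below 0.1 FPKM in both genotypes, and ASFT (RWP1) stood at 7.76 and 7.71 FPKM (q = 0.994) in the authors' deposited table. Strip genes were thus measured at 3.70 to 145 FPKM in bulk samples in which those 4 suberin genes were at or near 0. The fifth, ASFT, was within the range of the strip genes.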

How the data were processed

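RNA sequencing libraries of sorted cells (4 wild type, 4 pan) are labelled as separate biological replicates. Per the labels' protocols, cDNA was amplified with a low input kit that is not stated to keep strand. The tools named, per the submitters' processing notes, are TopHat2 2.0.13, Cufflinks 2.1.1 and Cuffdiff, and the build is TAIR10, with roles and settings not given in the sources used here. A single table was deposited by the authors with, per gene, a pooled FPKM for each genotype, a log2 change (pan over wild type, no pseudocount), a test statistic (a score, not used), a p-value and a q-value. The smallest deposited p-value, 5e-05, is shared by 853 genes. Depth per library is unknown, so no interval is given. No model could be fitted to libraries; genes are called at the authors' q under 0.05. The deposited q-values equal a Benjamini-Hochberg adjustment of the p-values of 19789 tested genes to within 5.25e-07. Benjamini-Hochberg adjustment, level bins and run search were tested on simulated data. The motif search was checked on a short made-up sequence, for TGACG only.

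The values of 1 of the 10 members are not reported here on their own; it stays in counts and medians over the 10. Called genes of the lists are named with values, except in the epidermis, root cap and stele lists, where some enter only in sums and counts. Other genes are named chiefly by level or kinship to a member. The members and lists were chosen with earlier results of these data known. Symbols are RefSeq's, matched by locus; a listed gene that RefSeq gives no symbol is called by its locus. Gene structure, promoters and coding sequences were read from RefSeq TAIR10.1, by its own coordinates (Biopython 1.88 for alignment). Of 27418 table rows with a nuclear gene there, 98.3% had the same chromosome and a start or end within 300 bases. Alternatives changed the q threshold, the genes adjusted over, the pseudocount, the scaling and the level minimum.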

Additional observations from a re-analysis of the deposited data

Results flagged for a closer look

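Among the strip pathway genes that the authors left without a test, the authors' deposited table lists AT2G16385 at 0 FPKM for wild type against 0.197 FPKM for pan. AT2G16385 was picked out because it has no test and its pan value lies above its wild type value, so its direction was part of the choice. GSO2, the closest relative of SGN3, was picked out for the same reason; the authors' deposited table lists it at 0 against 0.369 FPKM. Both levels are low and neither has a test.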

How the results depend on the processing

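The 2 calls among members, made at q under 0.05, held when p-values were readjusted over genes with a mean of at least 1 FPKM. ESB1 joined RBOHF and CASP1 at a q threshold of 0.1 and when readjusted over genes with a mean of at least 5 FPKM (3 called). At q under 0.01 RBOHF alone was called (1 member), and UCC2 alone among the other pathway genes (1, in place of 5). EXO70A1 joined those 5 at a q threshold of 0.1 and when readjusted over genes with a mean of at least 5 FPKM (6 called). The members' median log2 change was 1.27 with a pseudocount of 1 FPKM, 1.04 with 5 FPKM, 1.22 when centred on genes of like level, and 1.51 with median-of-ratios scaling, which shifts every gene by 0.17. The other pathway genes' median was 0.93, 0.73, 0.94 and 1.12 in that order, and 0.997 at a mean of at least 5 FPKM. None of the 10 members changed sign when centred on genes of like level; a pseudocount cannot change a sign. No paired analysis was possible because the table has no values per library; leaving out replicates was not run for the same reason. Unknown depth and amplification limit precision for SGN3 and other low genes.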

Other observations

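The CASP-like (CASPL) genes, the wider family to which the CASPs belong, were read by their RefSeq names. Of 34 with a row, 24 were tested, 3 rose and 1 fell, against 8.01% of all tested genes called higher and 9.83% called lower, so the share called is near that background. The median log2 change was 0.65. CASPL1D1 rose from 27.3 to 169 FPKM (q = 0.00116), CASPL4D1 from 86.6 to 264 FPKM (q = 0.00340) and CASPL2C1 from 2.72 to 31.2 FPKM (q = 0.00896) in the authors' deposited table. CASPL5A1 fell from 20.1 to 3.09 FPKM (q = 0.0221) in the authors' deposited table. CASPL4D1 was thus the most abundant gene of the family in both genotypes, above CASP1, and CASPL4B1 stood at 40.8 and 43.9 FPKM (q = 0.955) in the authors' deposited table. CASPL4D2, next to CASPL4D1 in locus number, stood at 1.41 and 23.2 FPKM and was not called (q = 0.462) in the authors' deposited table.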
